A study of Mus musculus with 4 samples.

Results

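Collagen chain genes, those whose symbol is Col followed by a type number, the letter a and a chain number, were described in lung mesenchymal cells labelled as lacking Dnmt1. The table of read counts held 44 such genes of 31247 listed, and 43 of them had enough reads to be tested. They were grouped as fibrillar (8 genes), basement membrane (9), FACIT (6), cartilage (7), type VI (6) and transmembrane or other chains (8).

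Collagens are the main structural proteins of the extracellular matrix, built from chains that wind into a triple helix. Fibrillar collagens form the tensile fibres of the lung interstitium, type IV collagen forms the mesh of basement membranes, and FACIT collagens bind the surface of fibrils. Type VI forms beaded microfibrils around cells, and types II, IX, X and XI belong to cartilage, which in the lung surrounds the large airways.

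The study compared Pdgfrb-GFP positive cells, called myofibroblasts in the labels, taken at postnatal day 7 (P7) from mouse lungs by cell sorting. The 2 CKO libraries are labelled Dnmt1-D/D with the alleles PDGFRb-GFP, Tbx4-rtTA and Tet-O-Cre. In this system rtTA, a transactivator that works with doxycycline, is driven by the lung mesenchyme gene Tbx4 and turns on Cre. The 2 WT libraries are labelled Wild type PDGFRb-GFP, with neither transgene named, so that rtTA, Cre and the Dnmt1 deletion differ together. All lungs were GFP+/-, each sample gave about 300000 to 350000 sorted cells, and the time of Cre induction is not given in the sources used here. Libraries are named by genotype and a letter in column order, and nothing states that they came from separate litters. The p-values therefore cover only the spread between those 4 libraries. The column names of CKO A, CKO B and WT B open with 1 shared number and that of WT A with another, so that the values without WT A are those within the shared number.

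Depth ranged from 23071657 to 26420648 counted reads, and levels are given as CPM, read counts scaled to library size with TMM factors. Dnmt1, the maintenance DNA methyltransferase gene, stood at 78.1 and 29.5 CPM in the CKO libraries, against 144 and 115 CPM in the WT libraries, and its log2 change of -1.27 ± 0.57 (SE) did not pass (edgeR adjusted p = 0.31). WT B had 27643 genes with at least 1 read, against 21883 to 22532 in the other 3 libraries, and its part in the results for low chains was not tested. Both CKO values of Dnmt1 were below both WT values, and the authors' deposited table gives Dnmt1 an adjusted p of 0.029. Pdgfrb, the gene behind the sort, had 374 and 317 CPM in the CKO libraries, against 507 and 477 CPM in the WT libraries (edgeR adjusted p = 0.0546). CKO A held 2494 reads of the Y-linked gene Ddx3y and the other 3 libraries held 0. Myofibroblast and smooth muscle markers summed to 9861 and 8511 CPM in CKO and 9704 and 9073 CPM in WT. Of 12 markers of that list 1 was higher (Cnn1, 8.33% of the list) and 0 lower, beside 4.85% and 2.75% of all tested genes. Of 12 epithelial and 12 endothelial markers 0 passed in edgeR, DESeq2 or limma-voom, with 0 and 1 at an unadjusted p under 0.05 in edgeR. Summed epithelial markers stood at 159 and 86.2 CPM in CKO and 66.9 and 199 CPM in WT, and endothelial markers at 304 and 225 CPM in CKO and 213 and 227 CPM in WT.

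Most collagen chains did not pass the test, and none of those that did was among the 10 chains with the highest level per length. Of 43 tested chains 4 were higher in CKO (Col6a5, Col8a2, Col26a1 and Col13a1) and 2 were lower (Col27a1 and Col24a1), by edgeR's quasi-likelihood test at an adjusted p under 0.05. Those shares were 9.3% and 4.65% of the tested chains, 14% together, against 4.85% higher and 2.75% lower, 7.61% together, among all 15210 tested genes. At an unadjusted p under 0.05 there were 11 chains higher and 3 lower, 14 of 43, where 25.2% of all genes reached it. The median log2 change was 0.15 over the chains and -0.0087 over all tested genes. The number of chains called moved with the libraries used, and so did that over all genes. Each fit without 1 library leaves 1 library in a genotype, so that its p-values hold no spread of that genotype.

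Without CKO A 13 chains were higher and 2 lower, where 7.88% and 3.38% of all genes were called. Without CKO B 4 were higher and 2 lower, with 3.8% and 2.62% of all genes. Leaving out WT A gave 3 higher and 0 lower, with 2.31% and 1.33% of all genes. Col6a5, Col8a2 and Col26a1 passed in each of these fits. Leaving out WT B gave 3 higher and 3 lower, with 1.56% and 0.574% of all genes, and the 3 lower were Col2a1, Col11a1 and Col8a1. DESeq2 called 10 higher and 2 lower, where 6.6% and 3.85% of all genes were called, and limma-voom 5 and 2, with 3.73% and 1.85%. With no filter on low counts the chains called were 11 and 4, with 4.94% and 2.93% of all genes, and at an adjusted p under 0.01 they were 2 and 0, with 1.31% and 0.276%.

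The CKO and WT values of 19 of the 43 chains (44.2%) did not overlap, 13 with CKO above and 6 with CKO below WT, while 57.1% of all tested genes showed no overlap, 27.7% with CKO above and 29.3% with CKO below. The CKO libraries also differed from each other over the class as a whole. CKO B stood above CKO A for 39 of 43 chains (90.7%), against 50% of all tested genes, and for all 13 chains whose CKO values lay above WT. WT A stood above WT B for 28 of 43 chains (65.1%), against 49.1% of all tested genes. CKO B was also the library with less Dnmt1, at 29.5 CPM against 78.1 in CKO A, and the one without Y-linked reads. The part of either in this order was not tested. In bulk cells a smaller share of cells that make a chain and less RNA per cell cannot be told apart.

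**Figure D1:**
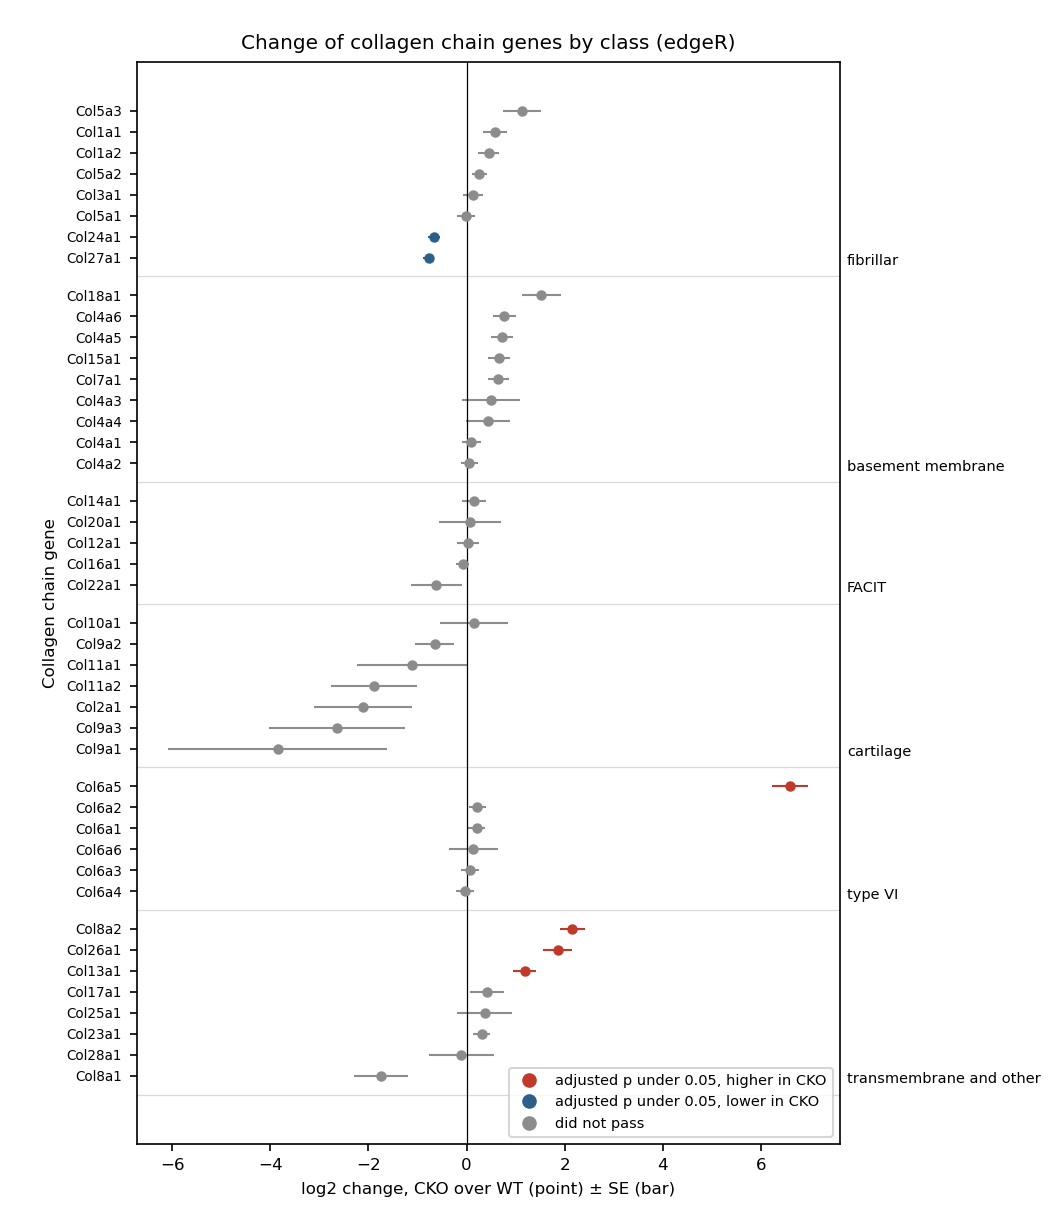
The log2 change of CKO over WT (x axis) is shown for each tested collagen chain (y axis) by class, with points for edgeR estimates and bars for ±1 SE (n = 2 libraries per genotype). Red points passed the test as higher and blue points as lower. Col6a5 stands apart at 6.60, and the cartilage chains have the widest bars.

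Collagen transcripts were among the most abundant RNAs of these cells. The 44 genes together took 5.66% and 7.45% of the reads in the CKO libraries, against 5.75% and 5.39% in the WT libraries. Col1a1, Col3a1 and Col1a2 were among the 10 genes with most reads in every library. The summed collagen level was 56951 and 75784 CPM in the CKO libraries, against 58199.5 and 52259 CPM in the WT libraries. The log2 ratio of the means was 0.27 (exact permutation test, two-sided, p = 0.667), and 2 libraries against 2 cannot give a p below 0.333. CKO B alone lay above both WT libraries, and without it the ratio was 0.044.

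Levels per length, in RPKM, which is CPM divided by the length of the transcript in kilobases, set the order of the chains. Col3a1, Col1a1 and Col1a2 led, followed by Col4a1, Col6a1, Col6a2, Col4a2, Col6a3, Col5a1 and Col5a2. Among these 10, neighbours in that order overlapped between libraries except at the steps from Col1a2 to Col4a1 and from Col5a1 to Col5a2: Col3a1 was at 2158 and 2776 RPKM in the CKO libraries, against 2142 and 2352 RPKM in the WT libraries, and Col1a1 at 2083 and 3265 RPKM in the CKO libraries, against 1918 and 1666 RPKM in the WT libraries. Those 2 ranges overlap. At the low end stood Col10a1 (0.162 RPKM on average in CKO and 0.143 in WT) and Col28a1 (0.10 in CKO and 0.106 in WT). Col19a1, a FACIT chain, had 1 read in each CKO library and 0 in each WT library and was not tested.

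**Figure D2:**
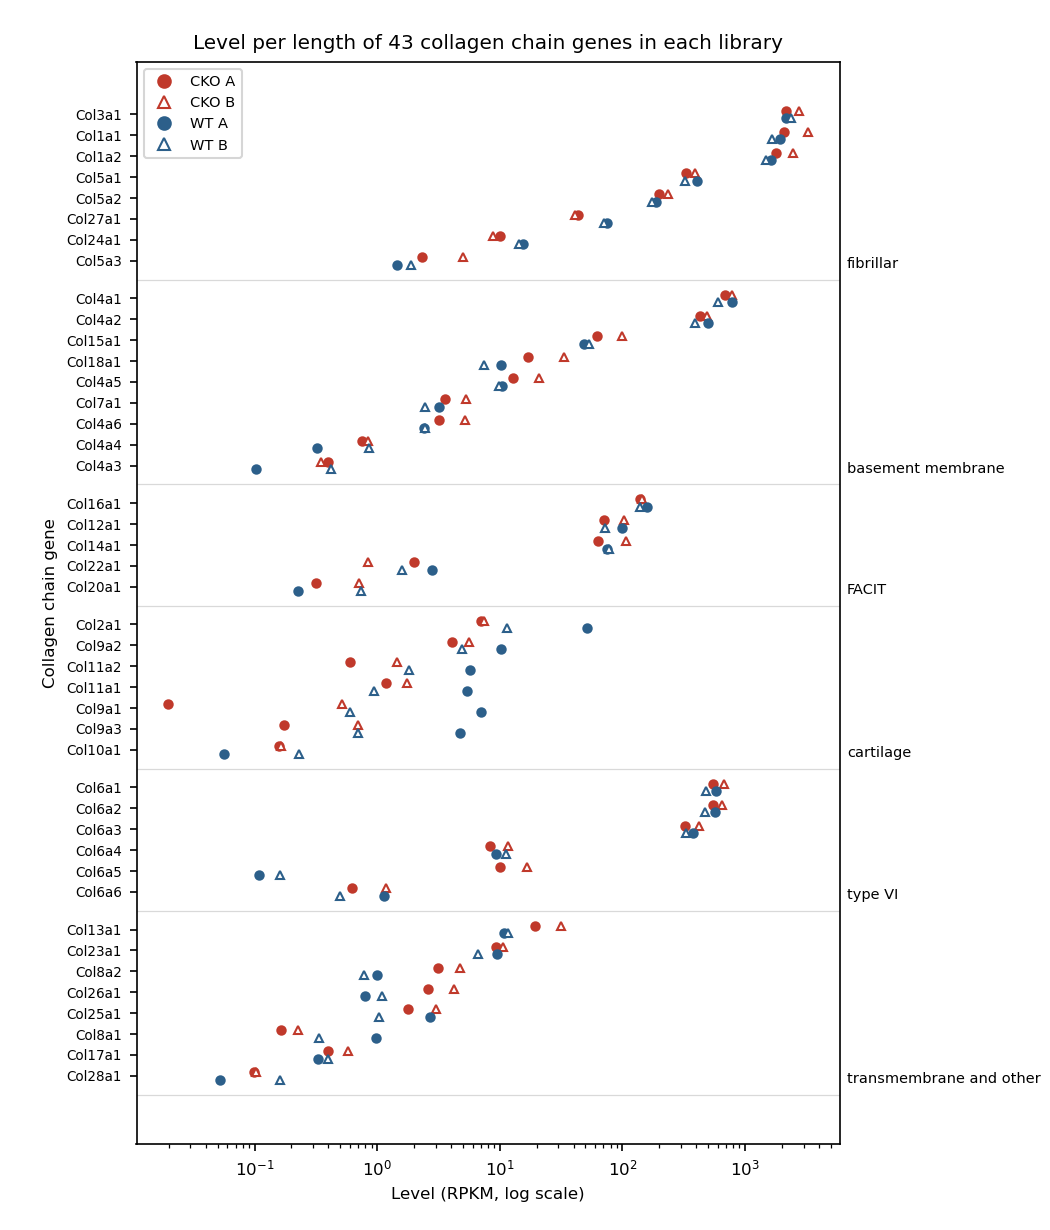
Levels per length (x axis, RPKM on a log scale) of the 43 tested collagen chains (y axis) are plotted for each library by class, CKO in red just above WT in blue. The leading fibrillar, type IV and type VI chains lie above 100 RPKM in every library, and the cartilage chains apart from Col10a1 are highest in WT A.

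Among fibrillar chains, the minor chains Col27a1 and Col24a1 passed as lower and no chain passed as higher. Both were among 8 tested chains, whose median log2 change was 0.20. That is 25% lower and 0% higher, beside 2.75% and 4.85% of all tested genes. At an unadjusted p under 0.05 in edgeR 2 more chains, Col1a1 and Col5a3, lay higher in CKO, and DESeq2 called the same 4. Over all tested genes 25.2% reached that p, and DESeq2 called 6.6% higher and 3.85% lower. Col27a1 (chromosome 4, 63214004 to 63334991, GRCm38), which encodes a fibrillar chain with a shortened triple helix, stood at 332 and 315 CPM in the CKO libraries, against 568 and 538 CPM in the WT libraries. Each CKO value lay below each WT value, with a log2 change of -0.78 ± 0.12 (SE), 1.71-fold lower (edgeR adjusted p = 0.0108). Col24a1 (chromosome 3, 145292472 to 145552011), the closest relative of Col27a1, stood at 71.1 and 63.4 CPM in the CKO libraries, against 110.3 and 102 CPM in the WT libraries. Its groups did not overlap either, and the log2 change was -0.66 ± 0.12 (SE) (edgeR adjusted p = 0.0174). Leaving out either WT library cost both their calls (edgeR adjusted p from 0.053 to 0.087), with log2 changes between -0.59 and -0.81.

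The main fibril chains lay higher in CKO B without passing. Col1a1, the alpha 1 chain of type I collagen and the main fibre former of the lung, had 12350.5 and 19362 CPM in the CKO libraries, against 11376 and 9880.2 CPM in the WT libraries. CKO B stood far above the other 3 libraries, CKO A was just above WT A, and the log2 change was 0.58 ± 0.25 (SE) (edgeR adjusted p = 0.193). It passed in DESeq2 (adjusted p = 0.0436). Its log2 change was 0.89 without CKO A, 0.23 without CKO B, 0.69 without WT A and 0.49 without WT B. Col1a2, its partner chain, had 9571 and 13091 CPM in the CKO libraries, against 8737 and 7875 CPM in the WT libraries, with the groups apart (log2 change 0.45, edgeR adjusted p = 0.228). Col3a1, which forms thin fibrils with type I, had 12008 and 15444 CPM in the CKO libraries, against 11919 and 13085 CPM in the WT libraries, and these overlapped (log2 change 0.13, edgeR adjusted p = 0.727).

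Type V chains, which start and limit type I fibrils, differed among themselves. Col5a1 had 2765 and 3302 CPM in the CKO libraries, against 3402 and 2729 CPM in the WT libraries, with overlapping groups. Col5a2 had 1319 and 1552 CPM in the CKO libraries, against 1239.8 and 1159 CPM in the WT libraries, both CKO values lying above WT (log2 change 0.26, edgeR adjusted p = 0.319). Col5a3, the rare chain of the type (chromosome 9, 20770050 to 20815067), had 376 and 706 reads in the CKO libraries, against 202 and 306 reads in the WT libraries. Its CKO values lay above both WT values and CKO B was well above CKO A, giving a log2 change of 1.13 ± 0.39 (SE) that did not pass (edgeR adjusted p = 0.166). Its log2 change was 1.60 without CKO A and 0.50 without CKO B. Col5a3 lies 92.1 kb from Dnmt1 on the same chromosome, and any part of the targeted locus in its level was not tested. Summed fibrillar chains stood at 38431 and 53159.8 CPM in the CKO libraries, against 37361 and 35380.1 CPM in the WT libraries.

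All 9 basement membrane chains had a log2 change above 0, and none passed in the edgeR fit used here. Their median was 0.65, beside -0.0087 over all tested genes. For Col4a1, Col4a2, Col4a3 and Col4a4 the sign changed when 1 library was left out. At an unadjusted p under 0.05 edgeR had 5 higher and 0 lower, where 25.2% of all tested genes reached it in either direction. DESeq2 called 4 higher and 0 lower, beside 6.6% and 3.85% of all genes. Limma-voom called 1 higher and 0 lower, beside 3.73% and 1.85%. Those 5 at an unadjusted p under 0.05 were Col18a1, Col4a6, Col4a5, Col7a1 and Col15a1. The class median depended on the library left out. It was 0.93 without CKO A, 0.36 without CKO B, 0.61 without WT A and 0.73 without WT B. The abundant pair was nearly level: Col4a1, a chain of the common type IV network, had 4574 and 5186 CPM in the CKO libraries, against 5159.8 and 3973 CPM in the WT libraries. The 2 genotypes overlapped, with a log2 change of 0.096 (edgeR adjusted p = 0.795). Col4a2, its partner, had 2782 and 3134 CPM in the CKO libraries, against 3195 and 2499.9 CPM in the WT libraries, again overlapping (log2 change 0.055, edgeR adjusted p = 0.882). The summed class, which these 2 dominate, stood at 7919 and 9251 CPM in the CKO libraries, against 8782 and 6905 CPM in the WT libraries, with overlap.

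Col18a1, whose protein carries the anti-angiogenic endostatin fragment (chromosome 10, 77052178 to 77166548), had 94.2 and 188 CPM in the CKO libraries, against 57.1 and 41.2 CPM in the WT libraries. Both CKO libraries exceeded both WT libraries and CKO B was highest, with a log2 change of 1.52 ± 0.40 (SE) (edgeR adjusted p = 0.116). DESeq2 and limma-voom placed it just past the threshold (adjusted p = 0.0454 and 0.046). Col15a1, the other multiplexin, which links basement membranes to the fibrils beneath, had 319 and 513 CPM in the CKO libraries, against 252 and 275 CPM in the WT libraries, with the groups apart (log2 change 0.66, edgeR adjusted p = 0.133). Col7a1, the chain of anchoring fibrils, had 33.2 and 48.8 CPM in the CKO libraries, against 29.6 and 22.7 CPM in the WT libraries, with the groups apart (log2 change 0.65, edgeR adjusted p = 0.129).

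Col4a5 and Col4a6 are neighbours on the X chromosome that face away from each other, 1308 bases apart, and had like differences. Col4a5, a chain of specialised type IV networks, had 84.1 and 135 CPM in the CKO libraries, against 68.7 and 64.5 CPM in the WT libraries. Col4a6, which pairs with it in smooth muscle basement membranes, had 21.1 and 34.4 CPM in the CKO libraries, against 16.1 and 16.4 CPM in the WT libraries. In both, CKO B was highest, CKO A was above WT, and the log2 changes were 0.72 ± 0.22 (SE) and 0.77 ± 0.23 (SE) (edgeR adjusted p = 0.111 for Col4a5 and 0.0963 for Col4a6). CKO A, the library with Y-linked reads, had the lower of the 2 CKO values for these X-linked genes, as for 39 of all 43 tested chains. Both WT libraries, with 0 reads of Ddx3y, lay below CKO A for both genes. The part of sex in these levels was not tested. Col4a3 and Col4a4, the type IV chains of alveolar and kidney membranes, were lowest in WT A, at 0.878 and 3.25 CPM. In the other 3 libraries Col4a3 lay between 2.98 and 3.58 CPM. WT A also had the lowest summed epithelial markers (above), and their part in these levels was not tested.

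FACIT chains gave 0 calls in edgeR, where 0 of 5 had an unadjusted p under 0.05, and 0 in DESeq2 and limma-voom. The log2 change of Col14a1 was 0.50 without CKO A and -0.26 without CKO B. Col16a1, found in fibrillin and collagen networks, had 724 and 747 CPM in the CKO libraries, against 833 and 719 CPM in the WT libraries. Col12a1, which bridges type I fibrils under tension, had 818 and 1196 CPM in the CKO libraries, against 1137 and 836 CPM in the WT libraries. Col14a1, a fibril-spacing chain, had 409.8 and 688 CPM in the CKO libraries, against 487 and 503 CPM in the WT libraries. In each of the 3 the genotypes overlapped. Their log2 changes were -0.078, 0.030 and 0.15, with SEs of 0.14, 0.23 and 0.24. Col22a1, a chain of tissue junctions, had 461 and 173 reads in the CKO libraries, against 557 and 374 reads in the WT libraries, with a log2 change of -0.62 ± 0.52 (SE) (edgeR adjusted p = 0.533). Col20a1 had between 26 and 98 reads in each library, with overlapping genotypes.

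Cartilage chains were highest in 1 WT library and none passed in edgeR, DESeq2 or limma-voom, nor did any of the 7 reach an unadjusted p under 0.05 in edgeR. The median log2 change was -1.89, with large errors. Summed over the class the level was 61.7 and 81.3 CPM in the CKO libraries, against 409.6 and 96 CPM in the WT libraries. WT A held far more than WT B, and WT B was only a little above the CKO libraries. Without WT A the log2 ratio of that sum moved to -0.42.

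Col2a1, the main fibril chain of cartilage, had 36.1 and 38.2 CPM in the CKO libraries, against 262 and 58.3 CPM in the WT libraries. Both WT values lay above both CKO values, but mainly through WT A, and the log2 change was -2.11 ± 1.00 (SE) (edgeR adjusted p = 0.362). Without WT A it was -0.64, and without WT B -2.81. Col11a2, a chain of the thin cartilage fibril core, had 3.62 and 8.71 CPM in the CKO libraries, against 34.7 and 10.9 CPM in the WT libraries (log2 change -1.89 ± 0.88 (SE), edgeR adjusted p = 0.325). Col9a3, which decorates type II fibrils, had 14 and 49 reads in the CKO libraries, against 326 and 56 reads in the WT libraries, with overlapping CPM values (log2 change -2.64 ± 1.38 (SE)). Col9a2, its partner, had 11.9 and 16.4 CPM in the CKO libraries, against 29.99 and 14.4 CPM in the WT libraries, with overlapping groups (log2 change -0.65 ± 0.39 (SE)). Col9a1 had 2 and 46 reads in the CKO libraries, against 612 and 61 reads in the WT libraries. Col11a1, with 192 to 943 reads, was highest in WT A too, and its log2 change of -1.12 became 0.64 without that library. Col10a1, the hypertrophic cartilage chain, had between 4 and 19 reads, fewest in WT A.

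Chondrocyte markers were set beside these chains. Of 15 listed markers 11 were tested, and 1 was higher (Matn4) and 1 lower (Sox5) in CKO. Each is 9.09% of the tested markers, beside 4.85% and 2.75% of all tested genes. The log2 change was above 0 for 2 of the 11 and below 0 for 9. Its median was -1.58, and -0.62 without WT A. The summed level of the list was 36.2 and 47.7 CPM in the CKO libraries, against 116 and 49.5 CPM in the WT libraries. It was highest in WT A, as for the cartilage chains. The markers that follow were chosen after their values were seen, and they leave out Matn4 and Sox5, the 2 that passed. Acan, Cnmd, Chad and Comp had fewer reads in CKO, whereas Matn4 was higher there. Acan, the aggrecan core protein gene, had 56 and 125 reads in the CKO libraries, against 813 and 159 reads in the WT libraries. Cnmd, which encodes chondromodulin, had 1 and 5 reads in the CKO libraries, against 128 and 13 reads in the WT libraries. Chad, which encodes chondroadherin, had 15 and 15 reads in the CKO libraries, against 71 and 40 reads in the WT libraries, and Comp, a cartilage matrix gene, 3 and 8 reads in the CKO libraries, against 42 and 12 reads in the WT libraries. Ucma and Matn1 had 0 reads in both CKO libraries, and Matn1 also in WT B. Their part in the levels of the cartilage chains was not tested.

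**Figure D3:**
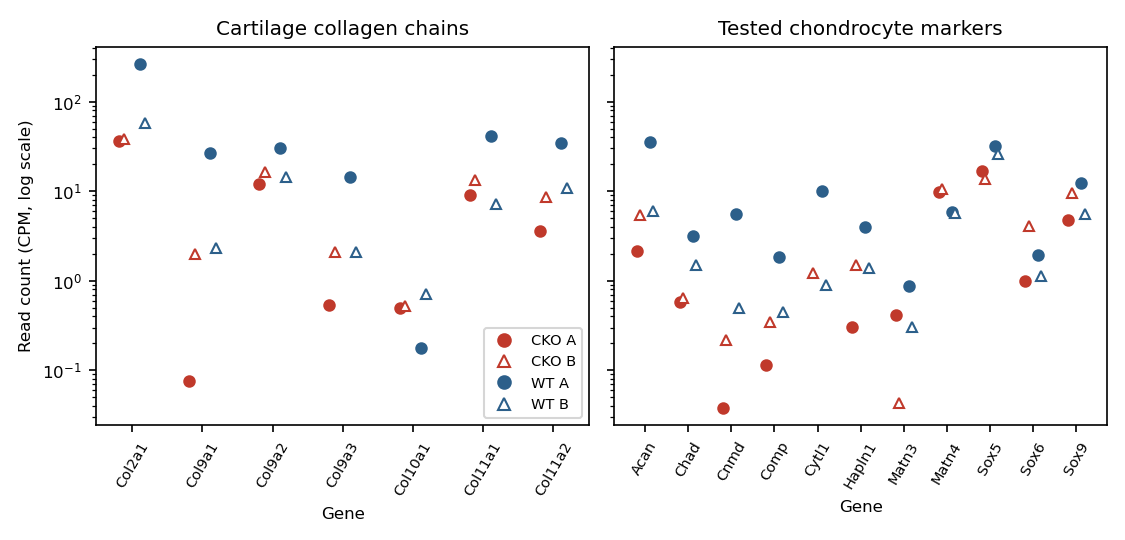
Read counts (y axis, CPM on a log scale) of the 7 cartilage collagen chains and of the 11 tested chondrocyte markers are shown for each library, CKO in red left of WT in blue. WT A (filled blue) lies above the other libraries for 6 of the 7 chains, all but Col10a1, and for most markers; Cytl1 had 0 reads in CKO A and has no point there.

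Col6a5 rose further than any other collagen chain. Its gene (chromosome 9, 105856078 to 105960643, GRCm38) encodes a chain thought to take the place of Col6a3 in type VI microfibrils. It had 2449 and 3573 reads in the CKO libraries, against 23 and 40 reads in the WT libraries, or 93.2 and 154 CPM in the CKO libraries, against 1.01 and 1.51 CPM in the WT libraries. Both CKO libraries were far above both WT libraries, with a log2 change of 6.60 ± 0.36 (SE), 96.8-fold higher (edgeR adjusted p = 0.00202). The call held in each fit without 1 library, with log2 changes between 6.20 and 6.94. The authors' deposited table gives Col6a5 a log2 value of 6.64 (mutant over control), with their adjusted p at 5.2e-81.

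The adjacent type VI genes did not pass. Col6a6 and Col6a4, paralogs that lie 27.9 kb and 28.8 kb to either side of Col6a5 on the same strand, encode further chains of this kind. Col6a6 had 5.44 and 10.3 CPM in the CKO libraries, against 9.97 and 4.38 CPM in the WT libraries, and the genotypes overlapped (log2 change 0.13 ± 0.50 (SE), edgeR adjusted p = 0.901). Col6a4 had 61.8 and 86.6 CPM in the CKO libraries, against 68.4 and 82.8 CPM in the WT libraries, again overlapping (log2 change -0.029 ± 0.18 (SE), edgeR adjusted p = 0.942). Transcripts of Col6a5 and Col6a6 share 322 stretches of 50 bases, of 9411 and 9161, so that a few reads could be assigned to either, and Col6a5 overlaps no other annotated gene.

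The bases before the starts of these 3 genes are printed because only the middle gene passed, with those of Col8a2, a called gene rich in CpG there. Each comes from the RefSeq promoter table (GRCm38.p6) and runs 5′ to 3′ on the gene's strand, in the 250 bases before the RefSeq start as far as they lie outside the GENCODE gene. Capitals mark CpG dinucleotides, the kind of site that Dnmt1 methylates.
Col6a5 (chr9:105960644-105960893, minus strand): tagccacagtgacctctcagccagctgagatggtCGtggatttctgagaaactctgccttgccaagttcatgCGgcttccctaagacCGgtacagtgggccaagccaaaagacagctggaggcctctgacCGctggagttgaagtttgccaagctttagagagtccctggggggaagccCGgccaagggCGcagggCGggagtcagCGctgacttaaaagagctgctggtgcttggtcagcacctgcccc
Col6a6 (chr9:105828161-105828335, minus strand): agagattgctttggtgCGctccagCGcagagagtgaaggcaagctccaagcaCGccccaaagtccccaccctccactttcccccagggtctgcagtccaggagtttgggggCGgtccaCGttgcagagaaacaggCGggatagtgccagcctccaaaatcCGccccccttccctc
Col6a4 (chr9:106096784-106096941, minus strand): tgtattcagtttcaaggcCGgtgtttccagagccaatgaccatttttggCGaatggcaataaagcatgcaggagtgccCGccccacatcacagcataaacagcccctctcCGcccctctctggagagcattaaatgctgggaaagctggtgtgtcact
Col8a2 (chr4:126286544-126286792, plus strand): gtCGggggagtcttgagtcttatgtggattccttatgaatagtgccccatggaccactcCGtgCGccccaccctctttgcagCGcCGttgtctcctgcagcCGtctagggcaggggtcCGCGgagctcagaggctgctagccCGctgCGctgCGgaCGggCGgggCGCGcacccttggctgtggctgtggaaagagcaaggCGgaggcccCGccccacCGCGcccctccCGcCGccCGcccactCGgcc
Over the full 250 bases the Col6a5 window holds 8 CpG, the Col6a6 window 10, the Col6a4 window 5 and the Col8a2 window 24. The printed parts, 250, 175, 158 and 249 bases long, hold 8, 7, 4 and 23. The first bases after the RefSeq start of Col6a4 matched no GENCODE transcript of that gene, unlike those of Col6a5, Col6a6 and Col8a2. The place of the Col6a4 window is therefore less certain. At least 8 CpG are found in 43% of all 32851 such windows, at least 10 in 37.8%, at least 5 in 55.6% and at least 24 in 12%. The motif searched was CG, which reads the same on both strands. Of 44 members 35 had a window. Those called higher with a window (Col6a5, Col8a2 and Col13a1) held 8, 24 and 24, those called lower held 15 (Col27a1) and 3 (Col24a1), and windows of tested members that did not pass ranged from 0 to 31. Methylation of these sites was not analysed here.

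The abundant type VI chains were nearly level. Col6a1, the alpha 1 chain present in every type VI molecule, had 2256 and 2744 CPM in the CKO libraries, against 2368 and 1964 CPM in the WT libraries. Col6a2, its partner, had 2714 and 3199.8 CPM in the CKO libraries, against 2776 and 2302 CPM in the WT libraries. Col6a3, the long chain of the common form, had 3287 and 4238 CPM in the CKO libraries, against 3819.9 and 3355 CPM in the WT libraries. In each the genotypes overlapped. Their log2 changes were 0.21 ± 0.17 (SE), 0.22 ± 0.17 (SE) and 0.069 ± 0.18 (SE), and edgeR gave adjusted p-values of 0.504, 0.473 and 0.854. Per length, Col6a5 reached 10.04 and 16.6 RPKM in the CKO libraries, against 0.109 and 0.162 RPKM in the WT libraries, compared with 372 RPKM of Col6a3 on average in CKO.

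**Figure D4:**
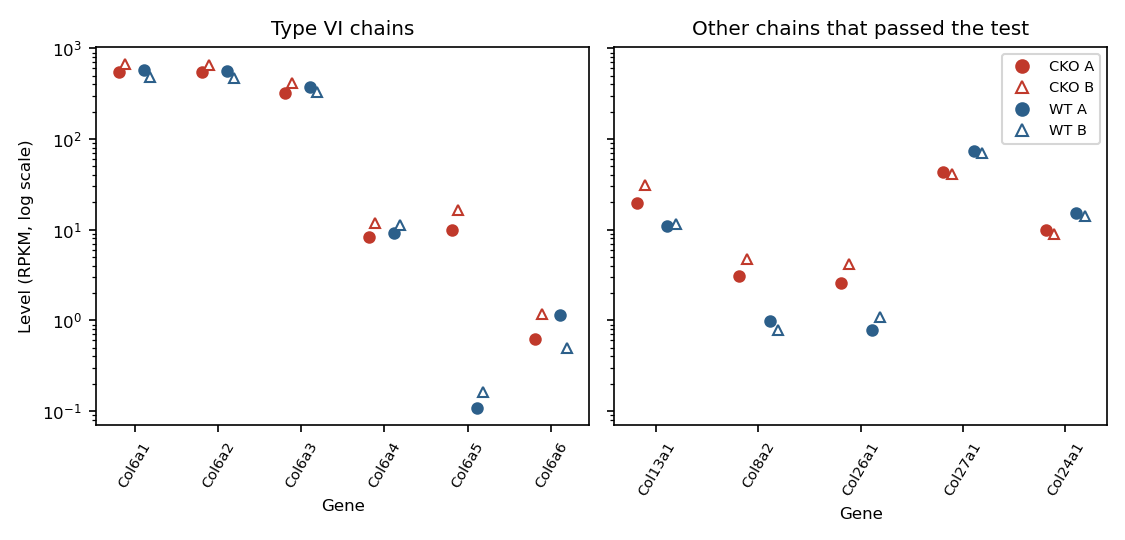
Levels per length (y axis, RPKM on a log scale) are shown per library for the type VI chains and for the 5 other chains that passed the test, CKO in red left of WT in blue. Col6a5 lies above 10 RPKM in both CKO libraries and below 0.2 in both WT libraries, while the symbols of the other type VI chains overlap.

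Col8a2, Col26a1 and Col13a1 also rose, 3 of 8 tested chains (37.5%) in the group of transmembrane and other collagens, where 0 passed as lower. Among all tested genes 4.85% were higher and 2.75% lower. Col8a2, a short-chain collagen of hexagonal networks in the corneal endothelial membrane and vessel walls (chromosome 4, 126286793 to 126314330), had 355 and 477 reads in the CKO libraries, against 98 and 89 reads in the WT libraries. The groups were far apart, with 17 ± 5.0 CPM in CKO and 3.83 ± 0.669 CPM in WT (SD, n = 2), 4.45-fold higher (edgeR adjusted p = 0.00451). Its partner chain Col8a1 had 22 and 27 reads in the CKO libraries, against 114 and 45 reads in the WT libraries, each CKO value below each WT value. That log2 change of -1.74 ± 0.55 (SE) did not pass (edgeR adjusted p = 0.104). It moved to -0.75 when WT A was left out, and to -2.31 when WT B was left out.

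Col26a1, an EMI-domain collagen (chromosome 5, 136741759 to 136883209), had 191 and 271 reads in the CKO libraries, against 50 and 80 reads in the WT libraries. Both CKO values lay above both WT values, 3.62-fold higher with a log2 change of 1.85 ± 0.30 (SE) (edgeR adjusted p = 0.0128). Col13a1, a transmembrane collagen of cell adhesion sites (chromosome 10, 61838236 to 61979108), had 61.7 and 99.6 CPM in the CKO libraries, against 34.4 and 36.6 CPM in the WT libraries. It too was higher in both CKO libraries, 2.27-fold with a log2 change of 1.18 ± 0.23 (SE) (edgeR adjusted p = 0.0342). Col13a1 lost its call when either WT library was left out (log2 change 1.15 and 1.24), whereas Col8a2 and Col26a1 kept theirs in each fit without 1 library. It also lost its call, unlike those 2, when a mean CPM of at least 1 was required (edgeR adjusted p = 0.0519).

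The remaining chains of the group did not pass. Col23a1, a transmembrane collagen, had 52.9 and 60.01 CPM in the CKO libraries, against 53.7 and 37.5 CPM in the WT libraries, overlapping between genotypes (log2 change 0.31 ± 0.18 (SE), edgeR adjusted p = 0.328). Col25a1, a transmembrane collagen of motor neuron and muscle development, had between 183 and 471 reads, and Col17a1, an epithelial hemidesmosome chain, between 42 and 75. Col28a1, found around glia of peripheral nerves, had 5 to 18 reads. Summed over the group the level was 151 and 217 CPM in the CKO libraries, against 119.8 and 92 CPM in the WT libraries. The authors' deposited table lists 9 chains as higher and 4 as lower at an adjusted p under 0.05, and all 6 chains called here are among them with the same sign. Beyond those 6 it lists Col18a1, Col15a1, Col4a5, Col4a6 and Col5a3 as higher and Col2a1 and Col11a2 as lower. That table rests on the same libraries, so the overlap is no separate support.

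Col4a1 to Col4a2, Col6a1 to Col6a2 and Col4a5 to Col4a6 kept close ratios of level per length in every library, whereas Col8a2 to Col8a1 and Col6a5 to Col6a3 did not. The ratio of Col4a1 to Col4a2 was 1.6 and 1.61 in the CKO libraries, against 1.57 and 1.55 in the WT libraries. Col6a1 to Col6a2 stood at 0.996 and 1.03 in the CKO libraries, against 1.02 and 1.02 in the WT libraries, and Col4a5 to Col4a6 at 4.06 and 4.0 in the CKO libraries, against 4.35 and 3.99 in the WT libraries. Col1a1 to Col1a2 was 1.16 and 1.33 in the CKO libraries, against 1.17 and 1.13 in the WT libraries, highest in CKO B. Col3a1 to Col1a1 was 1.04 and 0.85 in the CKO libraries, against 1.12 and 1.41 in the WT libraries, with CKO below WT. CKO was also below WT for Col6a3 to Col6a1 (0.591 and 0.627 against 0.654 and 0.693) and Col5a1 to Col5a2 (1.65 and 1.68 against 2.16 and 1.86). It was above WT for Col4a5 to Col4a1 (0.0186 and 0.0264 against 0.0135 and 0.0164) and Col18a1 to Col15a1 (0.273 and 0.339 against 0.21 and 0.139). Col5a3 to Col5a1 was 0.00711 and 0.0127 in the CKO libraries, against 0.00358 and 0.00581 in the WT libraries, with CKO above WT. By contrast Col8a2 to Col8a1 was 19 and 20.8 in the CKO libraries, against 1.01 and 2.33 in the WT libraries, and Col6a5 to Col6a3 was 0.0309 and 0.0396 in the CKO libraries, against 0.000288 and 0.000489 in the WT libraries. Over 12 pairs compared, exact permutation tests, two-sided, gave p-values from 0.333, the smallest possible, to 1, and from 0.444 to 1 after Benjamini-Hochberg adjustment. The size of a ratio depends on the transcript length used, while its change between libraries does not.

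**Figure D5:**
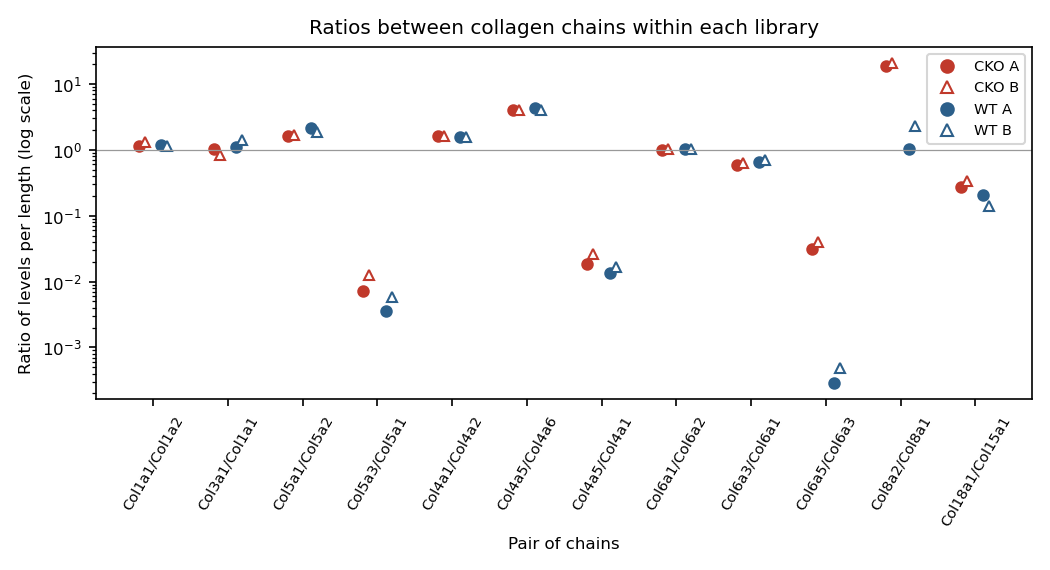
Ratios of levels per length (y axis, log scale) between 12 pairs of chains are shown within each library, CKO in red left of WT in blue. The pairs Col4a1/Col4a2, Col4a5/Col4a6 and Col6a1/Col6a2 lie level, whereas Col6a5/Col6a3 and Col8a2/Col8a1 are far higher in CKO.

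Genes that make, process and bind collagen were counted from 4 lists. Among 28 genes of hydroxylation, folding and export Tmem38b, Plod2 and Plod1 were higher and Creb3l2 lower, which is 10.7% and 3.57% of the list, beside 4.85% and 2.75% of all tested genes. The list's median log2 change was 0.27, and 23 of its genes (82.1%) did not overlap between genotypes, 20 with CKO above WT and 3 below, where 57.1% of all tested genes did not overlap. Plod1, a lysyl hydroxylase of collagen, had 169 and 178 CPM in the CKO libraries, against 124 and 107 CPM in the WT libraries (log2 change 0.58 ± 0.12 (SE), edgeR adjusted p = 0.0269). Plod2, the telopeptide lysyl hydroxylase, had 102 and 125 CPM in the CKO libraries, against 66.9 and 81.6 CPM in the WT libraries (log2 change 0.61 ± 0.15 (SE), edgeR adjusted p = 0.0466). Tmem38b, an ER cation channel needed for collagen maturation, was 2.12-fold higher (edgeR adjusted p = 0.0175). Creb3l2, a transcription factor of the secretory pathway, had 617 and 535 CPM in the CKO libraries, against 997 and 856 CPM in the WT libraries and was 1.61-fold lower (edgeR adjusted p = 0.0303). Summed over this list the level was 8735 and 8667 CPM in the CKO libraries, against 7508 and 7058 CPM in the WT libraries, with both CKO libraries above both WT libraries.

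Among 13 tested genes of propeptide processing and cross-linking 3 passed, all as higher, which is 23.1%, beside 4.85% of all tested genes. The list's median log2 change was 0.011, moving to 0.16 without WT A and to -0.11 without WT B. Adamts14, which removes the aminopropeptide of fibrillar collagens, had 128 and 167 CPM in the CKO libraries, against 74 and 57.7 CPM in the WT libraries (log2 change 1.16 ± 0.17 (SE), edgeR adjusted p = 0.0115). Pcolce, an enhancer of carboxypropeptide removal, had 296 and 337 CPM in the CKO libraries, against 197 and 179.9 CPM in the WT libraries (log2 change 0.75 ± 0.12 (SE), edgeR adjusted p = 0.0132). Tgm2, a cross-linking transglutaminase, was 1.99-fold higher (edgeR adjusted p = 0.0283). Loxl3, a lysyl oxidase, had 91.7 and 85 CPM in the CKO libraries, against 121 and 108 CPM in the WT libraries and did not pass (edgeR adjusted p = 0.0947).

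Of 15 tested fibril-binding proteoglycans and partners 2 passed, both as higher, which is 13.3%, beside 4.85% of all tested genes. The median log2 change was 0.30. Postn, which encodes periostin, a scaffold for collagen cross-linking, was 1.91-fold higher (edgeR adjusted p = 0.0252). Fmod, the proteoglycan fibromodulin, had 97.1 and 135 CPM in the CKO libraries, against 66 and 47 CPM in the WT libraries and was 2.05-fold higher (edgeR adjusted p = 0.0432). Prelp, a proteoglycan that binds collagen and heparan sulfate, and Comp did not pass (edgeR adjusted p = 0.134 and 0.144).

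The 2 collagen receptor kinases went in opposite directions. In their list 20% of tested genes passed as higher and 10% as lower, beside 4.85% and 2.75% of all tested genes. Of 10 tested receptor and uptake genes 2 were higher and 1 lower, against 0 and 0 when WT A was left out and 0 and 1 when WT B was left out. Ddr2, the receptor of fibrillar collagen in mesenchyme, had 423 and 430.4 CPM in the CKO libraries, against 808 and 674 CPM in the WT libraries, 1.74-fold lower (edgeR adjusted p = 0.0152). Ddr1, its relative typical of epithelium, had 96 and 133 CPM in the CKO libraries, against 61 and 63.4 CPM in the WT libraries, 1.84-fold higher (edgeR adjusted p = 0.02). In both genes the groups did not overlap. Plaur, the urokinase receptor, was 1.45-fold higher (edgeR adjusted p = 0.0412), and Itga10, an integrin chain for collagen, did not pass (edgeR adjusted p = 0.0596). Over the 4 lists, with 28, 13, 15 and 10 tested genes, 10 were higher and 2 lower. The shares over all tested genes were 4.85% and 2.75%. These counts moved with the library left out, as did those over all genes.

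Markers of other fibroblasts and of pericytes were set beside the collagen chains. Their counts stand beside 4.85% higher and 2.75% lower among all 15210 tested genes, and the shares without 1 library are given above. Among 12 adventitial markers 6 passed, all as higher, but 2 without WT A, 2 without WT B and 9 without CKO A. The sum over the list was 2498 and 3032 CPM in the CKO libraries, against 1723 and 1866 CPM in the WT libraries. Pi16, Igfbp6, Serpinf1 and Dpt led that list, 2.22-fold, 2.18-fold, 2.6-fold and 1.91-fold higher (edgeR adjusted p = 0.00534, 0.00811, 0.0231 and 0.0251). No alveolar fibroblast marker of 10 passed in edgeR or limma-voom, 5 were higher and 0 lower at an unadjusted p under 0.05 in edgeR, and DESeq2 called 2 higher. Their sum was 3463 and 5767 CPM in the CKO libraries, against 2994 and 2716 CPM in the WT libraries, highest in CKO B, as for most collagen chains. Pericyte markers, 1 of 10 higher and that one Postn, summed to 1689 and 2366 CPM in the CKO libraries, against 1263 and 1152 CPM in the WT libraries. Of 4 tested Schwann and neural crest markers Ngfr and Cdh19 were higher (1 call without WT B), Ngfr with 983 and 906 reads in the CKO libraries, against 22 and 35 reads in the WT libraries, while Sox10, the defining transcription factor, had between 0 and 5 reads in each library. Leukocyte markers, 4 of 9 higher and 0 lower, gave 1 call without WT A and 1 without WT B. They summed to 78.9 and 52.2 CPM in the CKO libraries, against 35.5 and 47 CPM in the WT libraries, and mesothelial markers to 23.9 and 9.62 CPM in the CKO libraries, against 4.43 and 12.9 CPM in the WT libraries, with 0 of 7 passing in edgeR, DESeq2 or limma-voom and 1 higher at an unadjusted p under 0.05. Their part in the collagen levels was not tested.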

How the data were processed

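RNA of sorted Pdgfrb-GFP positive cells from 2 CKO and 2 WT lungs was sequenced. The deposited table holds raw counts per gene, with a gene length in bases (another kind of value) and the authors' log2 fold change with its p-value and adjusted p-value, per the file headers. The submitters' processing notes name FastQC 0.11.8, cutadapt 2.5, Trimmomatic 0.36, STAR, edgeR 3.28.1 and the build GRCm38.p6. Which counter was used, and whether with strand, is not stated there, and 18 chains overlap a gene on the other strand, whose reads may be mixed. Columns named Control and Mutant were taken as WT and CKO. Of the per-sample columns 4 were not used.

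Counts were tested in R 4.3.3 with edgeR 4.0.16 (filterByExpr with a minimum count of 10, TMM, robust glmQLFit, glmQLFTest), adjusted by Benjamini-Hochberg over 15210 genes at 0.05. SE is the size of the log2 change over the root of the F statistic. RPKM used the transcript with the longest coding sequence in GENCODE M21 (GRCm38), which held 31171 of 31247 identifiers and all 44 chains. Depth was 23071657 to 26420648 reads, so that 1 read is 0.0377 to 0.0439 CPM. Replicates differed by more than sampling noise (chi-square per degree of freedom 32.4 in CKO and 18.1 in WT). The SE of the log2 change was 0.12 for Col27a1 and 2.22 for Col9a1, and the smallest change each chain could show was not tested.

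Members, lists and rules were chosen with earlier results of these data known. Named are the chains that passed and, per class, the 2 at the highest level and up to 4 with the lowest p, and per pathway list the 4 genes with the lowest p. Other named chains and marker genes were chosen after their values were seen. Alternatives were DESeq2 1.42.0, limma-voom (limma 3.58.1), RLE factors, library size alone, no filter, a mean CPM of at least 1, robust estimation off, an adjusted p under 0.01, removal of the length trend and leaving out each library, and, added after seeing the data, the deposited length for RPKM.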

Additional observations from a re-analysis of the deposited data

How the results depend on the processing

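Leaving out 1 library gave 3 to 13 collagen chains higher and 0 to 3 lower, 0 to 17 genes of the 4 collagen lists higher and 0 to 2 lower, and a log2 ratio of the summed collagen level of 0.044 to 0.48. The share called over all genes in each of those fits is given above and moved too. DESeq2 called 10 chains and 16 list genes higher, where 6.6% of all genes were called higher. With no filter on low counts 11 chains were higher and 4 lower, and 22 list genes higher and 4 lower, by edgeR over 31247 genes. Of all those genes 4.94% were called higher and 2.93% lower. At an adjusted p under 0.01, 2 chains were higher and 0 lower, and 0 list genes were higher and 0 lower. The shares over all tested genes were then 1.31% and 0.276%. Limma-voom, RLE factors, library size alone, a mean CPM of at least 1, robust estimation off and the removal of the length trend kept each of these counts within 1.5 times. With a mean CPM of at least 1 Col13a1 lost its call. No called chain changed sign. Of 43 tested chains 17, none called, changed sign when 1 library was left out. Over these fits the log2 change ran for Col3a1 from -0.047 to 0.33, Col4a1 from -0.071 to 0.31, Col4a2 from -0.10 to 0.25, Col12a1 from -0.26 to 0.31, Col14a1 from -0.26 to 0.50, Col6a3 from -0.12 to 0.27 and Col16a1 from -0.17 to 0.044. Col5a1 ran from -0.16 to 0.16, Col6a4 from -0.28 to 0.22 and Col6a6 from -0.38 to 0.85, and Col4a3, Col4a4, Col10a1, Col11a1, Col20a1, Col25a1 and Col28a1 also changed sign. The values below 0 of the first 6 came without CKO B or without WT B, at -0.023 without CKO B for Col4a2, -0.16 without WT B for Col12a1 and -0.012 without WT B for Col6a3, and that above 0 of Col16a1 without WT A. Col4a2 also moved to -0.038 with the length trend removed. The causes were not tested. The deposited gene length put the mean ratio of Col1a1 to Col1a2 at 3.41 in place of 1.20. No paired analysis was possible because the count columns carry no replicate number, so the block with replicate number was not run. Chains with under 50 reads in a library, such as Col10a1 and Col28a1, are limited by counting error.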
